A study of Homo sapiens with 40 samples.

Results

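The 6 arrays described here compare U2OS cells 2 days after transfection with a non-targeting control siRNA (3 arrays) with the same cells 1 day after it (3 arrays). They were chosen by their titles from the 40 arrays of the series, and all 22069 Ensembl genes of the table were tested. U2OS is a human osteosarcoma cell line. In both groups, cells at 30% confluence were reverse-transfected with the AllStars negative control siRNA at 15 nM using the lipid reagent HiPerFect. The siRNA and its dose are thus shared, and the groups differ in the day of harvest. The labels do not say how RNA extraction or hybridisation batches relate to the day. A batch that follows the day cannot be told apart from it, here or in the reference comparisons. The study profiled U2OS cells and the immortalised retinal pigment epithelial line hTERT-RPE1 after siRNAs against the histone gene regulators CASP8AP2, NPAT and HINFP, with gene expression measured as log2 signal on Affymetrix arrays. In the control cells the comparison asks which transcripts moved between the 2 days with no target knocked down. The same day change in hTERT-RPE1 control cells (3 arrays a day) and in U2OS cells given CASP8AP2 siRNA (3 arrays a day), both also at 15 nM, served for reference. Per the methods, U2OS cells were grown in DMEM and hTERT-RPE1 cells in a mixed DMEM medium that also held hygromycin B.

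Adherent cells that have just been plated spread, attach to the matrix they lay down and divide. Attachment and tension act through integrins, the actin cytoskeleton and the transcription factors SRF and YAP, and secreted ligands of the TGF-beta, BMP, EGF and interleukin families carry signals between the cells. Proliferating cells pass through the E2F-driven programme of replication genes in S phase and the programme of spindle genes before mitosis.

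The 6 arrays were alike in overall signal, with array medians between 5.58 and 5.64 and array means between 6.03 and 6.04. Across genes, arrays of one day correlated at r = 0.997 to 0.998 and arrays of different days at r = 0.995, and no arrays held identical values. The 5 blood cell markers and 3 endothelial markers that could be matched had day means between 3.10 and 4.86 and day differences between -0.05 and 0.16 on the log2 scale. Of 5 matched osteoblast and mesenchymal markers, the osteoblast transcription factor RUNX2 had day means of 7.34 and 7.79 and MSX2 7.28 and 7.40, while the bone matrix genes IBSP, POSTN and COL1A2 had day means between 3.34 and 4.49. The labels call the replicates biological without saying whether each was a separate culture, so p-values measure the spread between arrays. That spread was pooled per gene over the 24 arrays of days 1 and 2 in 8 groups, hTERT-RPE1 and CASP8AP2 siRNA arrays included. With 3 arrays a day, the median standard error of a day difference in this shared fit was 0.0874 on the log2 scale. Values after ± are standard errors from the same fit.

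Between day 1 and day 2, 2868 genes changed, which is 13.0% of those tested, at a Benjamini-Hochberg adjusted p under 0.05 in limma. Of these, 1609 (7.29%) were higher and 1259 (5.70%) lower on day 2. Most changes were small: the median size over the called genes was 0.34 on the log2 scale, 591 genes moved by at least 0.5, and 50 moved by at least 1. Among the 50, falls outnumbered rises by 31 to 19, the other way round from all calls. The balance of rises and falls depended on scaling: with each array centred on its median, which took 0.0396 from the day 2 side, 1152 genes were higher and 1686 lower. In bulk RNA from a culture, a change in the share of cells in a state and a change in RNA per cell cannot be told apart.

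**Figure D1:**
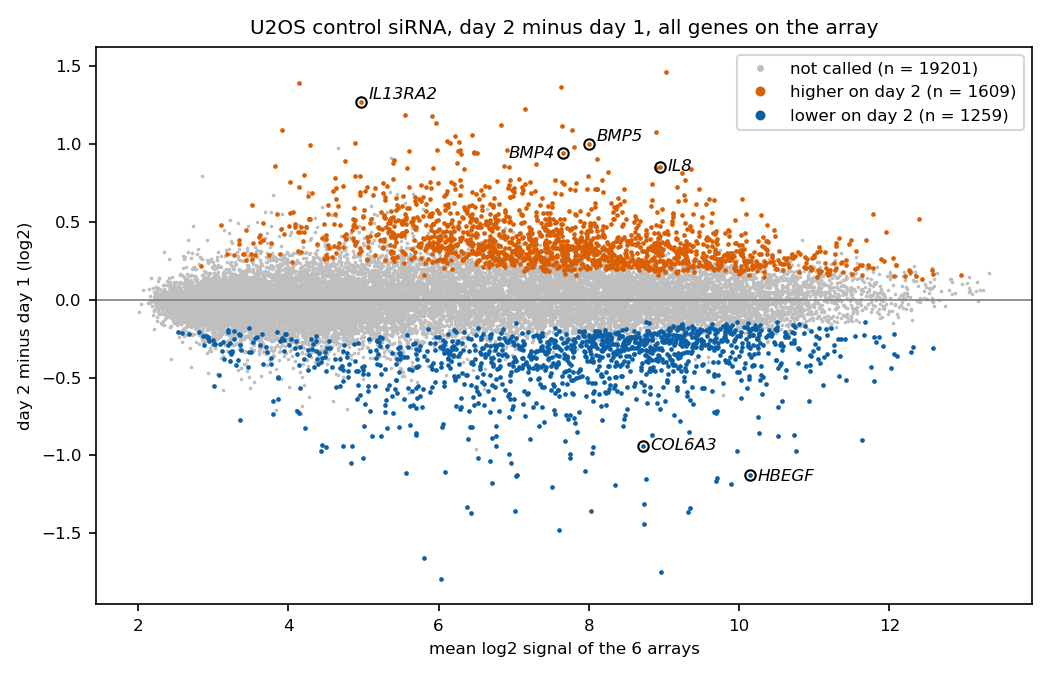
Day 2 minus day 1 log2 difference (vertical axis) against the mean log2 signal over the 6 arrays (horizontal axis) in U2OS control cells, 1 point per gene, with 1609 genes higher (orange), 1259 lower (blue) and the rest grey. The lower edge reaches -1.79 and the upper edge 1.46, and calls are sparse among the genes of lowest signal.

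Calls were rare among dim genes. With the genes divided by mean signal into 4 groups of nearly equal size, 1.47% of the dimmest were called, against 6.25%, 20.8% and 23.4% of the brighter groups. The 3 day 2 arrays lay wholly above the 3 day 1 arrays for 15.6% of all genes and wholly below them for 14.5%, and 2822 of the 2868 called genes belonged to one of these sets. Gene symbols were known for 1924 genes, mostly ones targeted in the siRNA screen of the study. Of these, 10.9% were called higher and 8.26% lower, which is the background for the gene lists below. The largest fall and the largest rise carried no symbol here: ENSG00000213416 fell by 1.79 and ENSG00000023171 rose by 1.46.

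The largest falls reported here included ligands, an integrin and a collagen. HBEGF (ENSG00000113070), a membrane-anchored ligand of the EGF receptor, read 10.72, 10.73 and 10.69 on day 1 and 9.58, 9.60 and 9.58 on day 2. Replicates of HBEGF were almost level within each day, and the fall was 1.12 ± 0.05, or 2.18-fold (limma adjusted p = 1.77e-11). ITGA11 (ENSG00000137809), an integrin subunit that binds collagen, read 5.35, 5.53 and 5.64 and then 4.57, 4.47 and 4.43, a 2.02-fold fall.

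COL6A3 (ENSG00000163359), a chain of collagen VI, read 9.20, 9.19 and 9.17 and then 8.24, 8.27 and 8.23, a 1.91-fold fall with little spread on either day. The other large falls were the ErbB receptor ligand NRG3 (-0.95), the calpain family member CAPN6 (-0.94), the complement component C3 (-0.87), the P-selectin ligand SELPLG (-0.85), the inhibitory SMAD protein SMAD7 (-0.80) and the cytokine receptors IL27RA (-0.77) and IL1R1 (-0.70). WNT5A came next, at -0.69.

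**Figure D2:**
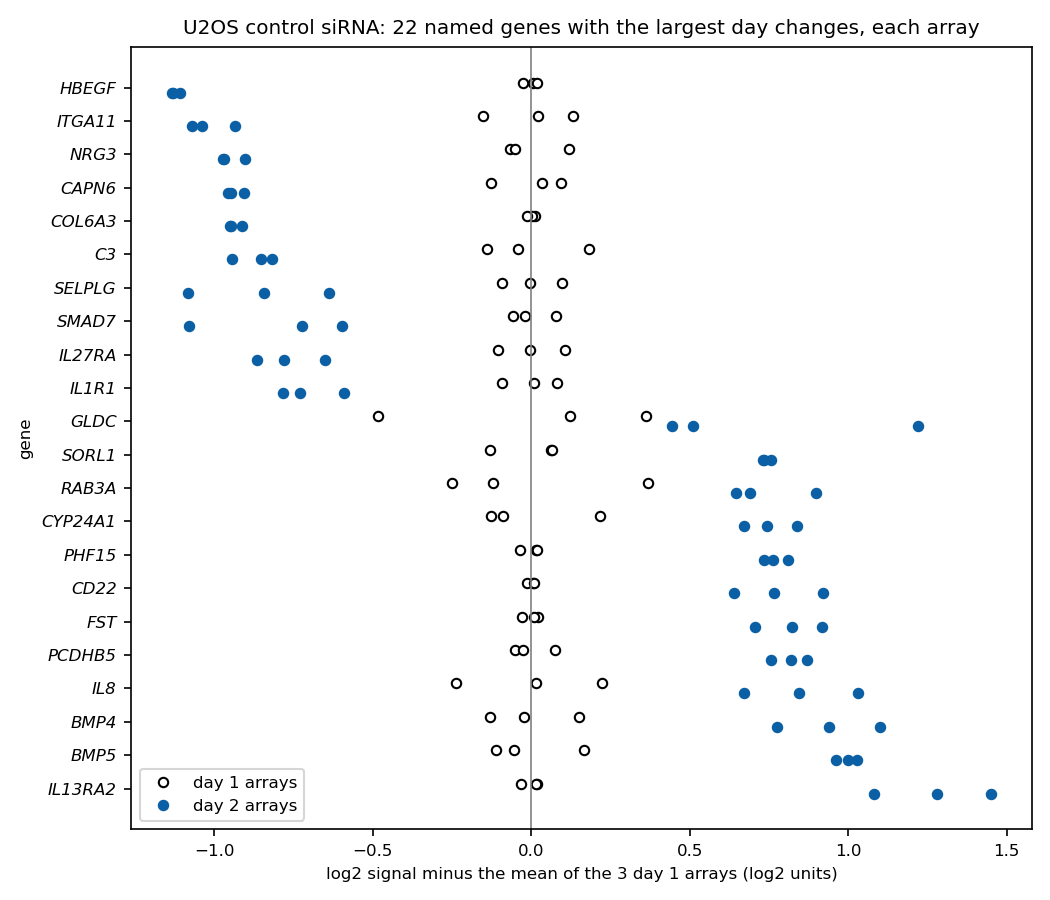
Log2 signal of each U2OS control array minus the mean of the 3 day 1 arrays (horizontal axis) for 10 of the largest falls and the 12 largest rises among genes with a symbol; open circles are day 1 arrays and blue circles day 2 arrays. The days do not overlap for any of the 22 genes, as the rule that chose them required, and GLDC, RAB3A and IL8 show the widest spread on day 1.

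More matrix and adhesion genes fell than rose. Of 14 matched collagen and matrix genes, 5 fell and 0 rose: COL6A3, the laminin chains LAMB1 (-0.56) and LAMC1 (-0.30), fibronectin FN1 (-0.52) and COL3A1 (-0.28). FN1 (ENSG00000115414) read 12.03, 12.03 and 12.11 on day 1 and 11.48, 11.53 and 11.60 on day 2, a 1.43-fold fall. The median of the list was -0.06 against -0.01 over all genes, since the other 9 members did not pass the test, and the call of COL3A1 was lost without day 1 replicate 3, day 2 replicate 1 or day 2 replicate 3 (adjusted p up to 0.107). Of 11 adhesion genes, 4 fell, ITGA11, the vitronectin receptor subunit ITGAV (-0.51), N-cadherin CDH2 (-0.41) and the hyaluronan receptor CD44 (-0.22), and 1 rose, the gap junction protein GJA1 (0.39). The metalloprotease ADAM12 fell by 0.56, while MMP7, at -0.39, lost its call when any 1 of the 6 arrays was left out (adjusted p up to 0.101). The call of GJA1 was lost without day 2 replicate 1 or without day 2 replicate 2 (adjusted p up to 0.0589), and that of CD44 when only the 6 arrays were fitted (adjusted p = 0.0669).

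Several genes of contractility and of tension-sensitive transcription fell. Of 5 matched actin and SRF-target genes, 3 fell and 0 rose, and the list median was -0.37. SRF (ENSG00000112658), the transcription factor itself, read 10.79, 10.91 and 10.88 on day 1 and 10.41, 10.30 and 10.37 on day 2. It fell by 0.50 ± 0.06 (limma adjusted p = 1.35e-05), and its days were clearly apart. Tropomyosin TPM1 (-0.57) and the non-muscle myosin heavy chain MYH9 (-0.37) fell too, while ACTN4 and FHL2 had differences of -0.07 and -0.06. These 3 calls were made under each of the other scalings as well. Of 5 matched YAP and TEAD targets, connective tissue growth factor CTGF, now CCN2, fell by 0.43 and the other 4 lay between -0.12 and 0.03. Of 3 immediate early genes, KLF10 (-0.35) and FOSL1 (-0.24) fell, the latter with a call lost without day 1 replicate 2 or 3 or day 2 replicate 1 or 2 (adjusted p up to 0.165).

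Members of the TGF-beta response moved both ways. Of 6 matched genes 3 were called lower, SMAD7, TGFBI (-0.26) and ID1 (-0.26), and 2 rose, the ligand BMP4 and the activin antagonist FST. The call of SMAD7 held with any 1 array left out, whereas ID1 lost its call in all 6 such fits (adjusted p up to 0.114) and TGFBI in 5, all but that without day 2 replicate 2 (adjusted p up to 0.296). BMP4 (ENSG00000125378) read 7.05, 7.16 and 7.33 on day 1 and 8.28, 7.96 and 8.12 on day 2, a 1.92-fold rise (limma adjusted p = 1.11e-06). FST (ENSG00000134363), follistatin, read 8.80, 8.85 and 8.84 and then 9.74, 9.65 and 9.53, a 1.76-fold rise. BMP5 (ENSG00000112175), a ligand outside the list, read 7.67, 7.45 and 7.39 and then 8.51, 8.53 and 8.47, a 2.00-fold rise.

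IL13RA2 (ENSG00000123496), a decoy receptor for interleukin-13, had the largest rise with a symbol. It read 4.35, 4.29 and 4.34 on day 1 and 5.61, 5.41 and 5.78 on day 2, a 2.41-fold rise from a dim start (limma adjusted p = 4.42e-07). IL8 (ENSG00000169429), now CXCL8, a chemokine that draws neutrophils, read 8.29, 8.75 and 8.54 and then 9.20, 9.56 and 9.37, a rise of 0.85 ± 0.12 (limma adjusted p = 5.12e-05). Within the NF-kB list of 8 matched genes IL8 was the 1 member that rose, and 3 fell: the feedback inhibitor TNFAIP3 (-0.49), the inhibitor of apoptosis BIRC3 (-0.46) and the NF-kB subunit NFKB1 (-0.32). IL1A, CCL5, PTGS2 and TNFAIP2 lay between -0.13 and 0.09. This pattern of 1 rise and 3 falls held under each of the other scalings.

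The remaining large rises came from unlike families. They were the protocadherin PCDHB5 (0.82), the sialic-acid-binding lectin CD22 (0.77), the PHD finger protein PHF15, now JADE2 (0.77), the vitamin D hydroxylase CYP24A1 (0.75), the vesicle GTPase RAB3A (0.74), the sorting receptor SORL1 (0.74) and the glycine-cleaving enzyme GLDC (0.72). RSPO3 followed at 0.72. GLDC read 5.60, 5.36 and 4.75 on day 1 and 5.75, 6.46 and 5.68 on day 2, so its days were hardly apart. Its call was lost without day 1 replicate 3 or without day 2 replicate 2 (limma adjusted p up to 0.193), with differences of 0.48 in both cases. It was also lost when only the 6 arrays were fitted (limma adjusted p = 0.128). The other 21 of the 22 genes kept their calls in every alternative but the demand for a log2 difference of at least 1. The hyaluronan synthase HAS2 (ENSG00000170961) read 6.81, 6.95 and 6.55 and then 7.44, 7.33 and 7.64, a rise of 0.70, while EXT1, which builds heparan sulfate, fell by 0.33.

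Among genes of DNA replication and mitosis 13 were called higher on day 2, mostly by small amounts and close to the threshold. Of 7 matched licensing genes 3 were called higher, the licensing factor CDT1 (0.29), the origin recognition subunit ORC1L, now ORC1 (0.26), and the helicase subunit MCM3 (0.22). Of 11 DNA synthesis genes 3 were called higher, DNA ligase LIG1 (0.25), the ribonucleotide reductase subunit RRM1 (0.18) and the clamp loader subunit RFC4 (0.18). Of 6 genes of the E2F and RB family 3 were called higher, E2F2 (0.71), its partner TFDP2 (0.27) and E2F1 (0.20). Of 9 mitosis genes 4 were called higher, separase ESPL1 (0.32), the chromosomal passenger CDCA8 (0.29), the kinesin KIF2C (0.20) and the kinetochore protein NUF2 (0.18). No member of these 4 lists was called lower.

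E2F2 (ENSG00000007968), an activator of replication genes, moved furthest among them. It read 5.95, 5.77 and 5.88 on day 1 and 6.67, 6.58 and 6.49 on day 2, with no overlap, a 1.64-fold rise (limma adjusted p = 3.27e-05). ESPL1 (ENSG00000135476), the protease that releases sister chromatids, read 8.26, 8.40 and 8.36 and then 8.68, 8.66 and 8.64, a 1.25-fold rise. E2F1 (ENSG00000101412) read 8.55, 8.64 and 8.78 and then 8.93, 8.90 and 8.74, so its days overlapped. E2F2, TFDP2, ESPL1 and CDCA8 kept their calls in every alternative but the size demand, and the other 9 of these 13 genes lost theirs in at least 1. RRM1 lost its call without day 1 replicate 3 (adjusted p = 0.0529), and CDT1, ORC1L, MCM3, LIG1, RFC4, E2F1, KIF2C and NUF2 lost theirs in 4 or 5 of the 6 fits without 1 array (adjusted p up to 0.0702, 0.192, 0.0923, 0.135, 0.212, 0.219, 0.185 and 0.0885). Leaving out 1 array at a time left 0 to 2 licensing, 1 to 2 DNA synthesis, 2 to 3 E2F family and 2 to 4 mitosis genes called, the 0 arising without day 1 replicate 1, day 2 replicate 2 or day 2 replicate 3. Centring arrays on the median left 0 licensing, 0 DNA synthesis, 2 E2F family and 2 mitosis genes, all higher.

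**Figure D3:**
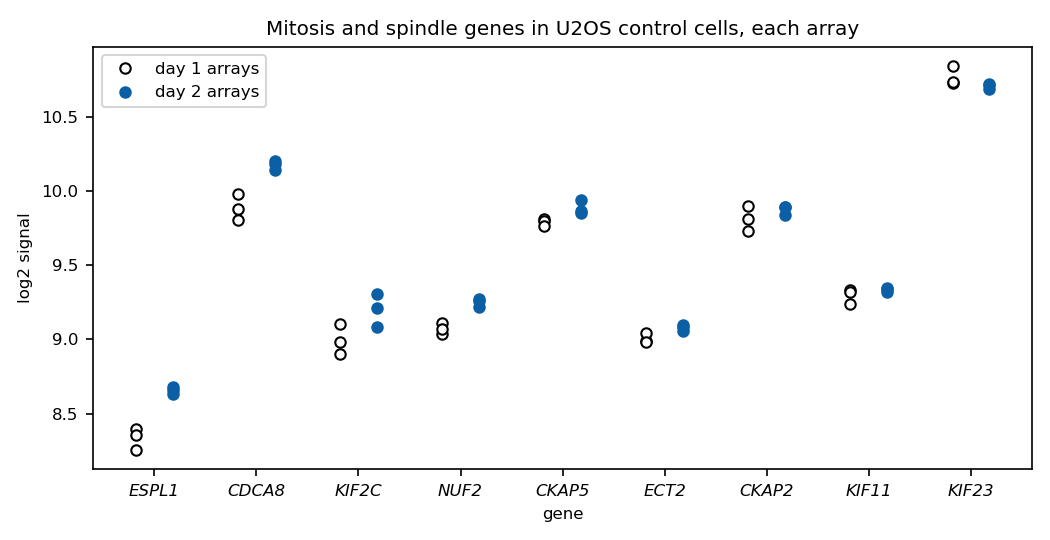
Log2 signal (vertical axis) of the 9 matched mitosis and spindle genes in each U2OS control array, with open circles for day 1 and blue circles for day 2. The gap between the days is widest for ESPL1 and CDCA8, where the rises were 0.32 and 0.29, and the days overlap for KIF2C, CKAP2 and KIF11.

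E2F factors bind DNA at sequences close to TTTNGCGC, where N is any base. In the 250 bases before the annotated start (RefSeq, GRCh38.p14; promoters were found for all 13 genes), these letters stood on either strand in 3 of the 13, against 1.51% of 35116 promoters. The 13 are called members of lists of replication, E2F and mitosis genes, and uncalled members of those lists were not searched. The share therefore does not bear on the day change. The 3 promoters with a match are shown because they belong to genes that were called higher, and capitals mark each match. In E2F2 a match on each strand overlaps the other. E2F2 lies at chr1:23531234-23531483 on the minus strand, E2F1 at chr20:33686386-33686635 on the minus strand and CDT1 at chr16:88803539-88803788 on the plus strand.
E2F2: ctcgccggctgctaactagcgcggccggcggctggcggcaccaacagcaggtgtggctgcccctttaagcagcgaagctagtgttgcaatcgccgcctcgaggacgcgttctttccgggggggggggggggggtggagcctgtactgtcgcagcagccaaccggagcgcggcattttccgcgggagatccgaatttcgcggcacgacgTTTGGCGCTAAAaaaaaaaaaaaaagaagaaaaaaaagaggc
E2F1: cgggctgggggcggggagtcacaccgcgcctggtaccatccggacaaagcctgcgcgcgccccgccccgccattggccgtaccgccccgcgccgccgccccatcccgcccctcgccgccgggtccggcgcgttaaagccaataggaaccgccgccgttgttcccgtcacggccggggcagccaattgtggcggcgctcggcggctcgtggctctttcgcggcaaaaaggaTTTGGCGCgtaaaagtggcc
CDT1: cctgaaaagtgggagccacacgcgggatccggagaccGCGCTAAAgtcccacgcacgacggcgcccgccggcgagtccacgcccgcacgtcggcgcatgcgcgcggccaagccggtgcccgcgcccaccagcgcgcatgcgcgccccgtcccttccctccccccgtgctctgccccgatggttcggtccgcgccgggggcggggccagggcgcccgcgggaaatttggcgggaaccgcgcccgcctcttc
The letters TGANTCA of AP-1 sites and CACGTG of E-boxes, searched the same way on both strands, stood in 0 of the 13, against 6.57% and 6.34% of all promoters. So few promoters cannot set 0 apart from these shares. Where promoters of the largest changes were found, AP-1 letters stood in 1 of 8 falls and 2 of 10 rises. E2F and E-box letters each stood in 0 of 8 falls and 1 of 10 rises. A match of letters describes the sequence and does not show that a factor binds there.

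Genes of DNA repair did not move as a group. Of 16 matched members 2 were called higher, XRCC3 (0.24) and FANCG (0.23), and 1 lower, the helicase BRIP1 (-0.28), with a list median of -0.01, and under median centring 0 were higher and 3 lower. BRIP1 kept its call in every alternative but the size demand. FANCG lost its call without day 1 replicate 1 or 3 or day 2 replicate 1 (limma adjusted p up to 0.0751). XRCC3 lost its call without day 1 replicate 1 or any day 2 array (adjusted p up to 0.284), its difference being 0.12 without day 1 replicate 1. With only the 6 arrays fitted, FANCG and XRCC3 also lost their calls (adjusted p = 0.086 and 0.186). XRCC3 further lost its call with all 40 arrays, under all 3 scalings and with the replicate block. Of 5 cyclin and kinase genes, CCNE2 (-0.25) and the mitotic inhibitor kinase WEE1 (-0.22) were called lower. The cyclins CCNE1, CCNA2 and CCNA1 had differences of 0.07, 0.16 and 0.10. CCNE2 lost its call when all 40 arrays were fitted (adjusted p = 0.0827). WEE1 lost its call in all fits without 1 array except that without day 2 replicate 2 (adjusted p up to 0.168). It was also not called with only the 6 arrays fitted (adjusted p = 0.0741).

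Some genes of the endoplasmic reticulum and of respiration were called higher. The chaperone HSPA5 (ENSG00000044574), also called BiP, read 11.78, 11.78 and 11.63 on day 1 and 12.15, 12.22 and 12.14 on day 2, a rise of 0.44 ± 0.06 (limma adjusted p = 1.68e-05). Of 5 matched genes of the unfolded protein response, HSPA5 and the disulfide isomerase PDIA4 (0.23) were called higher, and the other 3 lay between 0.14 and 0.16. Of 6 respiratory chain genes 4 were called higher, SDHB (0.27), UQCRC2 (0.23), UQCRC1 (0.19) and ATP5B (0.15), with a list median of 0.17. That count fell to 1, SDHB, under median centring and when only the 6 arrays were fitted, and PDIA4 also lost its call in both (adjusted p up to 0.12). Without 1 array, 2 to 3 respiratory genes stayed called, the 2 arising without day 1 replicate 2 or 3 or day 2 replicate 1, and PDIA4 lost its call without any of these or without day 2 replicate 2 (adjusted p up to 0.196). Among amino acid genes of the ATF4 programme PHGDH (0.38) and ASNS (0.31) rose while the transporters SLC7A11 (-0.37) and SLC7A1 (-0.25) fell. The call of ASNS was lost without day 1 replicate 3 (adjusted p = 0.0529). With only the 6 arrays fitted, ASNS and SLC7A1 both lost their calls (adjusted p = 0.0626 and 0.0606).

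Apoptosis genes that moved were on both sides of the mitochondrial switch. Of 13 matched members 3 rose and 0 fell: the death effector BAX (0.43), its antagonist BCL2L1 (0.28) and the initiator caspase CASP9 (0.26). BAX (ENSG00000087088) read 9.92, 9.85 and 9.84 on day 1 and 10.31, 10.28 and 10.30 on day 2, clearly apart. The call of CASP9 was lost without day 1 replicate 1 or 3 or day 2 replicate 1 or 3 (limma adjusted p up to 0.0982). It was also lost with only the 6 arrays fitted, under median centring and under quantile normalization (limma adjusted p up to 0.0595). Of 8 matched p53 targets BAX and TRIM22 (0.41) rose, and the remaining 6, BBC3 and PMAIP1 among them, did not pass the test.

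In the circadian list 2 of 4 matched genes fell. The nuclear receptor NR1D1 (ENSG00000126368), a repressor in the circadian clock, read 9.38, 9.46 and 9.54 on day 1 and 8.84, 8.92 and 8.88 on day 2, a 1.49-fold fall. ARNTL2, another gene of the list, fell by 0.24, while PER1 and PER3 had differences of 0.14 and 0.06. The Notch ligand JAG1 fell by 0.39, and the other 6 matched Notch genes did not pass the test. Of 8 Wnt genes, WNT5A (-0.69) and the antagonist DKK1 (-0.37) were called lower. DKK1 was not called without day 1 replicate 1 or 3 or day 2 replicate 1 or 2 (adjusted p up to 0.174). With only the 6 arrays fitted it was not called either (adjusted p = 0.065). The insulin receptor substrate IRS1 rose by 0.52, the sterol exporter ABCG1 by 0.67 and the sterol isomerase EBP by 0.37.

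Among the histone gene regulators, CASP8AP2 (ENSG00000118412) read 6.86, 6.75 and 6.68 on day 1 and 6.97, 6.99 and 7.02 on day 2 in the control cells. The days did not overlap, but the difference of 0.23 ± 0.09 did not pass the test (limma adjusted p = 0.131). NPAT had a difference of -0.12 (limma adjusted p = 0.203). HINFP was called higher by 0.22 (limma adjusted p = 0.0246), a call lost in 10 alternatives, among them all 3 scalings and leaving out day 1 replicate 2 or 3 or day 2 replicate 2 or 3. The linker histone H1F0 had a difference of 0.15 (limma adjusted p = 0.41), and canonical histone genes could not be matched by symbol.

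The day change in U2OS control cells was not that of hTERT-RPE1 control cells. Cell line and culture medium cannot be told apart in this comparison. In hTERT-RPE1 2209 genes (10.0%) changed between the days, 983 higher (4.45%) and 1226 lower (5.56%), and 680 were called in both lines, which is 23.7% of the U2OS calls and 30.8% of the hTERT-RPE1 calls. Of the 680, 352 moved in the same direction and 328 in opposite directions, and across all genes the 2 sets of differences correlated at r = 0.03, over genes that are not independent replicates. The difference between the lines itself passed the test for 2364 genes (10.7%), 1338 of them more positive in U2OS (6.06%) and 1026 more negative (4.65%). These counts rest on the shared fit: with only the 6 hTERT-RPE1 arrays, 722 genes were called in that line.

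**Figure D4:**
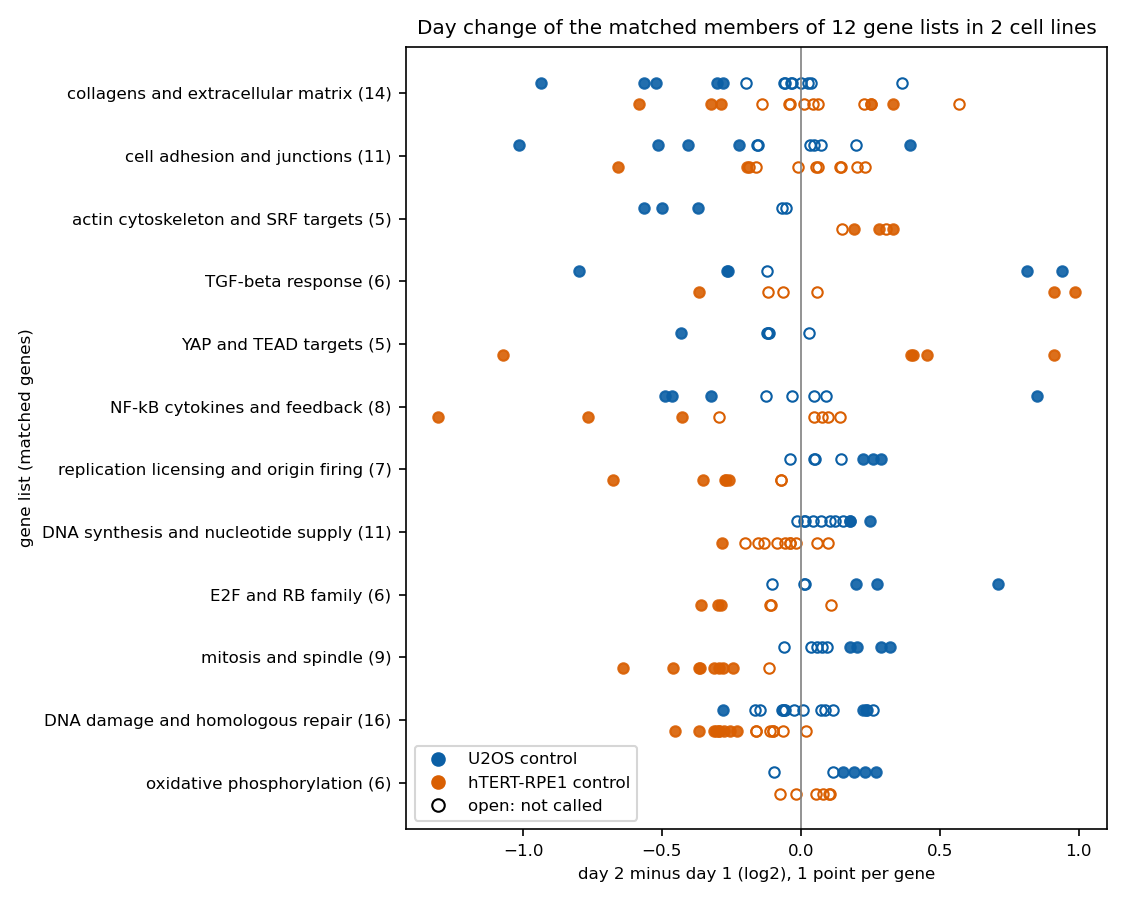
Day 2 minus day 1 log2 difference (horizontal axis) of the matched members of 12 gene lists in U2OS control (blue) and hTERT-RPE1 control cells (orange), 1 point per gene, filled where called. The mitosis genes lie between -0.06 and 0.32 in U2OS and are called lower in hTERT-RPE1 for 8 of 9, and the actin genes lie on opposite sides of 0.

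Some of the cell cycle lists moved differently in the 2 lines. In hTERT-RPE1 8 of the 9 mitosis genes fell, 5 of 9 with only the hTERT-RPE1 arrays fitted, and the difference between the lines was positive and called for all 9, and for 7 to 8 of them under the other scalings and with only the arrays compared. ESPL1 rose by 0.32 in U2OS and fell by 0.64 in hTERT-RPE1, a difference of 0.96 ± 0.09 (limma adjusted p = 7.04e-07). CDCA8 and NUF2 differed by 0.75 and 0.55. Of the 7 licensing genes 5 fell in hTERT-RPE1, 1 with only its own arrays fitted, and 5 differed between the lines, CDT1 by 0.64. E2F2 rose by 0.71 in U2OS and fell by 0.36 in hTERT-RPE1, and 8 of 16 repair genes fell in hTERT-RPE1 in the shared fit with 0 higher. The DNA synthesis list showed less, with 1 of 11 genes lower and 0 higher in hTERT-RPE1. Line differences passed the test for RFC4 (0.26) and RRM1 (0.22) but not for LIG1 (limma adjusted p = 0.142).

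Of the 5 actin genes, SRF (-0.50 in U2OS, 0.28 in hTERT-RPE1) and MYH9 (-0.37 and 0.33) fell in U2OS and rose in hTERT-RPE1, with line differences that passed the test (limma adjusted p = 5.28e-06 and 5.69e-07). TPM1 fell in U2OS and had a difference of 0.31 in hTERT-RPE1 that did not pass (limma adjusted p = 0.0585), while its line difference did (limma adjusted p = 0.000267). The line differences of ACTN4 and FHL2 did not pass (limma adjusted p = 0.0645 and 0.0666). In hTERT-RPE1, 3 of the 5 actin genes were called higher and 0 lower, against 4.45% and 5.56% of all genes. Of the 5 matched YAP and TEAD targets, 4 were called higher and 1 lower there. Among these targets CTGF fell in U2OS and rose by 0.46 in hTERT-RPE1, and its line difference passed (limma adjusted p = 1.94e-06). HBEGF fell in U2OS and differed by -0.05 in hTERT-RPE1, and the line difference was called. Of the 10 falls reported in U2OS, COL6A3 and C3 also fell in hTERT-RPE1. The line difference was called more negative for 9 of the 10, against 4.65% of all genes, the exception being IL1R1 (limma adjusted p = 0.0695). These 10 were picked for their fall in U2OS, which is part of the line difference, so that count was largely set by the choice. Of the 12 largest rises, BMP4 rose in both lines (0.94 and 0.99), with a line difference of -0.05 ± 0.14. IL8, CD22 and FST fell in hTERT-RPE1, where IL8 dropped by 0.77. NR1D1 fell by 0.58 in U2OS and by 0.51 in hTERT-RPE1, and the line difference of -0.07 ± 0.105 did not pass the test (limma adjusted p = 0.781).

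The CASP8AP2 siRNA arrays first showed their target. In U2OS, CASP8AP2 read 5.40, 5.39 and 5.60 on day 1 and 5.23, 5.20 and 5.34 on day 2 under its own siRNA, below every control array of either day. Between the days of that treatment 4929 genes (22.3%) changed, 2461 higher (11.2%) and 2468 lower (11.2%). Of the 4929, 1616 were also called in the control cells, which is 56.3% of the control calls and 32.8% of the others. Of the 1616, 1495 moved in the same direction, and the correlation across genes was r = 0.42. Of the 10 falls reported in control cells 9 fell with CASP8AP2 siRNA, all but C3 (-0.03), and of the 12 largest rises 10 rose, all but PCDHB5 (0.28) and GLDC (-0.52).

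The difference of the day change between the siRNAs passed the test for 1554 genes (7.04%), 672 more positive (3.04%) and 882 more negative (4.00%) with control siRNA. HBEGF fell by 1.12 with control siRNA and by 0.40 with CASP8AP2 siRNA, a difference of -0.72 ± 0.07 (limma adjusted p = 2.06e-06). ITGA11 (-0.64) and COL6A3 (-0.53) likewise fell further with control siRNA. Of the 10 reported falls, picked for their fall with control siRNA, 5 had a difference called more negative and 0 more positive. Of the 12 largest rises, 1 was called each way. NRG3 (-0.95 and -1.22) and IL27RA (-0.77 and -0.94) fell further with CASP8AP2 siRNA, though their differences did not pass the test. EXT1 also fell further with CASP8AP2 siRNA (-0.33 and -0.63), and its difference of 0.29 passed (limma adjusted p = 0.0391). KLF10 and JAG1 fell in control cells and rose with CASP8AP2 siRNA, by 0.22 and 0.20. DKK1 was lower by 0.37 with control siRNA and rose by 1.35 with CASP8AP2 siRNA. SRF (-0.50 and -0.48), FN1 (-0.52 and -0.58) and IL8 (0.85 and 0.84) changed with either siRNA, and their differences of -0.02 ± 0.09, 0.06 ± 0.08 and 0.01 ± 0.17 did not pass the test.

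**Figure D5:**
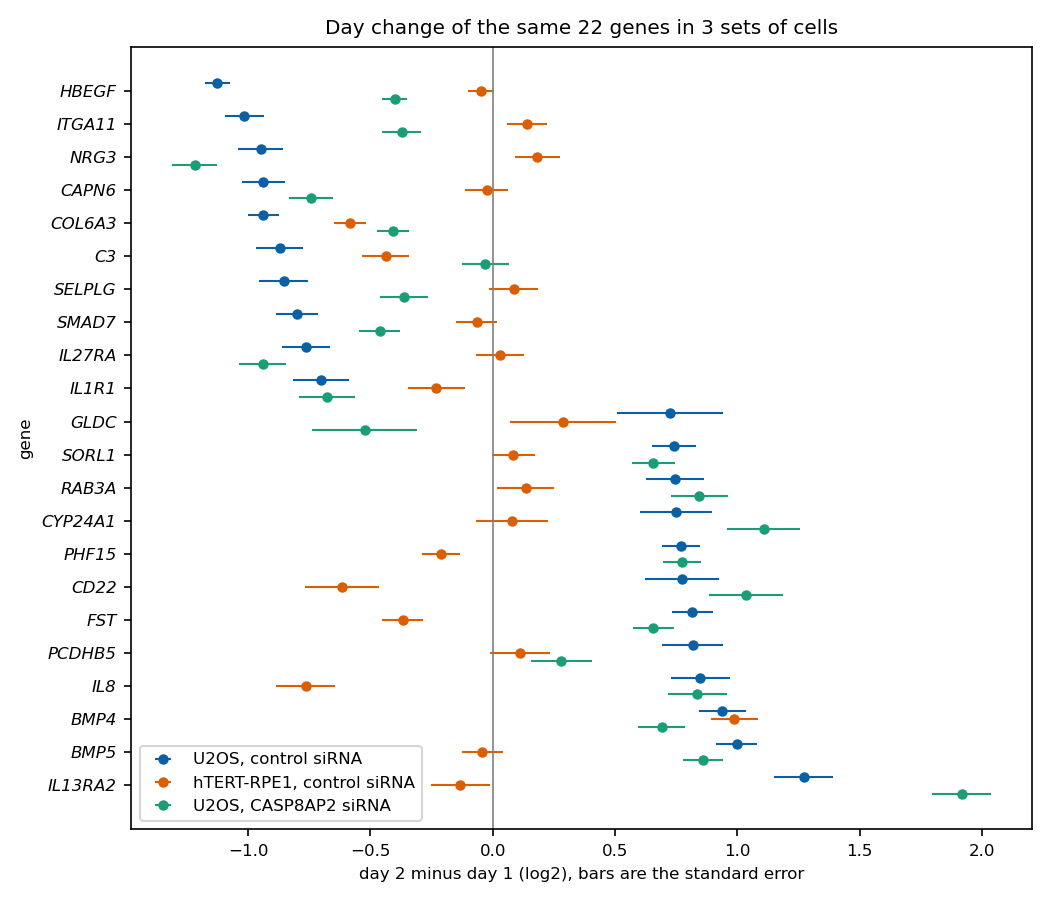
Day 2 minus day 1 log2 difference with its standard error (horizontal axis) of the 22 genes in U2OS control cells (blue), hTERT-RPE1 control cells (orange) and U2OS cells with CASP8AP2 siRNA (green). With CASP8AP2 siRNA, 9 of 10 falls and 10 of 12 rises were called in the same direction, against 2 of 10 falls and 1 of 12 rises in hTERT-RPE1. Over all genes, 11.2% were called lower and 11.2% higher with CASP8AP2 siRNA, against 5.56% and 4.45% in hTERT-RPE1.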

How the data were processed

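Per the methods and the submitters' processing notes, the authors ran the Affymetrix WT 1.1 arrays through the Bioconductor package affy with RMA and a custom probe set definition of 1 probe set per Ensembl gene. The deposited values are log2 signals. The definition's version, genome build and affy version are not given in the sources used here. RMA equalises the arrays it sees, which hides any shift of all RNA together. Array means lay between 6.00 and 6.05 on days 1 and 2 (24 arrays) and between 5.85 and 5.88 on day 3 (16 arrays), so day 3 was left out of the comparisons.

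A linear model with 8 group means was fitted to the 24 arrays in limma 3.58.1 (R 4.3.3), with empirical Bayes variances, 16 residual degrees of freedom, no filter, and Benjamini-Hochberg adjustment over 22069 genes. Contrasts were day 2 minus day 1 in each set and the differences between contrasts. Each such difference contains the U2OS control arrays, so it is not independent of the U2OS control change. On simulated data for the U2OS control contrast (22069 genes, 200 changed), 76 of 100 genes changed by 0.5 and 96 of 100 changed by 1 were recovered, with 6 false calls. The simulated noise was independent and normal with 1 spread per gene in all groups, as the model assumes. Far fewer genes were changed than the 2868 called in the data. The simulation therefore checks the code and does not measure recovery or false calls in the real contrast.

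Symbols came from the study's screen sheets, which pair 1924 of the 22069 identifiers (8.72%) with names, and 1898 of these had a current RefSeq symbol. The 52 gene lists hold 1251 symbols, of which 238 (19.0%) were matched, and at most 45.5% of one list, so counts cover the matched members alone. Of the 238, 43 were called higher and 37 lower. Named were 12 rises and 12 falls, the largest with a symbol, a call and no overlap of the days, the largest rise and fall without a symbol, up to 4 called members per list, CASP8AP2, NPAT, HINFP and H1F0, and the 5 largest each way in the difference between lines or siRNAs. RSPO3 is the value just outside the 12 rises, and TGFBI, ID1 and COL3A1, called members past the 4 of their lists, were named after their values were seen. Some genes are not reported here and were left out of the list counts and of the named genes, which leaves 10 of the 12 falls. The members, lists and motif were chosen with earlier results of these data known. Alternatives were other sets of arrays, 3 scalings, a level filter, a minimum difference, a variance trend, a replicate block and leaving out each array.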

Additional observations from a re-analysis of the deposited data

Results flagged for a closer look

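The day change differed between the cell lines or between the siRNAs for many genes, and several of the widest differences on each side among genes with a symbol are listed here with the limma difference (day change in U2OS control minus that in the other cells, log2). Each passed the test at an adjusted p under 0.05. Against hTERT-RPE1 control cells the widest positive difference among them was that of HAS2, which rose by 0.70 in U2OS and fell by 1.72 in hTERT-RPE1, a difference of 2.42 (adjusted p = 7.1e-10). IL8 differed by 1.61, IL13RA2 by 1.4, CD22 by 1.39 and PDE3A by 1.37, the last a gene whose call in U2OS itself was lost in 11 alternatives. On the negative side CA9, a carbonic anhydrase induced by hypoxia, differed by -1.66: it rose by 1.33 in hTERT-RPE1, while in U2OS its difference of -0.33 did not pass the test. PLCB4 (-1.22), ITGA11 (-1.15), NRG3 (-1.13) and HBEGF (-1.08) followed. Some of these genes were dim in one of the lines. NRG3 had day means of 4.02 and 4.20 in hTERT-RPE1. In U2OS, PLCB4 had day means of 5.34 and 5.07 and PDE3A 4.37 and 4.70. A dim gene has little room to fall, and whether signal level shaped these differences was not tested.

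Between control and CASP8AP2 siRNA in U2OS, the widest differences among genes with a symbol were negative, most of them from genes that did not pass the test in control cells. The cyclin CCNA1 had a day difference of 0.10 with control siRNA and rose by 2.24 with CASP8AP2 siRNA, a difference of -2.14 (adjusted p = 6.56e-07). ANGPT2 differed by -2.05, TGFA by -1.43 and ZNF280A by -1.36 in the same way, while DKK1, called lower in control cells, differed by -1.72. On the positive side GLDC differed by 1.25, though its day change in control cells (0.72) was 0.48 without day 1 replicate 3 or without day 2 replicate 2. OSGEPL1 differed by 0.89, TNNT2 by 0.89 and the pyrimidine synthesis enzyme DHODH by 0.82. Groups of 3 arrays are too small for a check of single outlying arrays.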

How the results depend on the processing

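The U2OS control calls (2868) numbered 2156 with only the 6 arrays, 2148 to 2359 with 1 array left out and 50 with a log2 difference of at least 1. With that size demand the counts were 44 in hTERT-RPE1, 141 for the difference between lines, 192 with CASP8AP2 siRNA and 148 for the difference between siRNAs, and with only the hTERT-RPE1 arrays 722 were called there. Leaving out 1 array gave 1560 to 2042, 1994 to 2418, 3942 to 4233 and 1175 to 1357 in the same order. Every gene called both as reported and in an alternative kept its direction. Scaling moved the balance: median centring gave 1152 higher and 1686 lower in U2OS control, 1050 and 1204 for the difference between lines and 1921 and 3854 with CASP8AP2 siRNA, and cyclic loess gave 386 and 1096 for the difference between siRNAs. Of 1447 alternative values of the 97 called named genes 301 were no longer past the threshold and 0 reversed, and 62 genes kept the call in every alternative but the size demand. Same-numbered replicates of the 2 days shared little (correlations of deviations 0.052, 0.0092 and -0.00982), so the numbers were not taken as pairs. With the replicate number as a block, 2652, 1943, 2196, 4646 and 1307 genes were called in U2OS control, hTERT-RPE1, the difference between lines, CASP8AP2 siRNA and the difference between siRNAs. Dim genes could seldom be called, and 3 arrays a day limit what small differences can show.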
